A study of Mus musculus with 4 samples.

Results

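CTCF summits lying more than 100 kb from any annotated gene were examined in the CUT&RUN peak lists of 4 mouse embryonic stem cell (mESC) lines. A summit is the base of highest signal in a peak, and members were the summits on autosomes other than chromosome 11 whose distance to the nearest RefSeq gene of any biotype, protein-coding or not, was above that limit. The lists held 4503 such summits, of 334066 peaks in all and beside 283151 other summits on the same 18 autosomes. The rule used position alone, so strength, width, spacing and sharing between libraries were not used to choose members.

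The lines were all HoxB heterozygotes on chromosome 11, with a Del allele opposite a Del(i9-13) allele that carried an inserted array of CTCF binding sites, and each had 1 library. In the Del(CBS8-10) line the array lacked CBS8-10, in the Inv line the array Ins(CBS5-10) was inverted, it was inverted and lacked CBS7-10 in the Inv:Del(CBS7-10) line, and in the Ins line it was complete. No treatment, time or passage is given in the labels, and it is not stated whether a line is 1 clone. Chromosome 11 was left out, since the authors' genome held it in 2 versions, so the regions described here are not edited in any line.

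CTCF is a zinc-finger protein that binds a long DNA motif and stops cohesin as it extrudes loops, so its sites often stand at the borders of chromatin domains. Gene deserts are long stretches without genes, often found beside genes of development and of the nervous system, and they can hold enhancers that act over long distances. A CTCF peak in a desert marks occupied DNA and by itself says nothing about a loop or a target gene. CTCF peaks also do not test the cell type named in the labels.

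Fewer than 1 in 50 summits lay this far from a gene. The Del(CBS8-10) list held 1104 (1.71% of 64499, 95% Wilson interval 1.61 to 1.81), the Inv list 884 (1.57% of 56237, 1.47 to 1.68), the Inv:Del(CBS7-10) list 1340 (1.56% of 85864, 1.48 to 1.65) and the Ins list 1175 (1.45% of 81054, 1.37 to 1.53). The number followed the length of the list, and the share was similar in the 4 libraries, with the interval of the Del(CBS8-10) list above that of the Ins list. With 1 library per genotype there is no replicate check on that difference, and intervals cover counting error only. Read depth was not used here, as the lists do not hold it. The background of each library, in fragments per position, was 0.553, 0.19, 1.327 and 0.858 in the order above, lowest in the Inv library and highest in the Inv:Del(CBS7-10) library.

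Gene deserts were sparsely occupied, not empty. Between the first and last gene of each autosome, 172.9 Mb lay more than 100 kb from every gene, which was 7.57% of 2283 Mb. This far territory carried 6.36 summits per Mb in the Del(CBS8-10) library, against 30.0 per Mb elsewhere. The Inv library had 5.10 against 26.2 per Mb, the Inv:Del(CBS7-10) library 7.73 against 40.0 per Mb, and the Ins library 6.78 against 37.8 per Mb. The density elsewhere was thus 4.72, 5.14, 5.17 and 5.58 times that of the far territory, in the same order of libraries. It was lower in the far territory in 4 of 4 libraries (exact two-sided paired permutation test over the 4 libraries, p = 0.125, the smallest p this design allows). The libraries share the same genome and many of the same positions, and they differ in background and number of summits. The 4 pairs of this test and of the later paired tests are therefore not fully separate observations. The lengths of territory include any unsequenced bases.

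The decline with distance was gradual. In the Ins library the density was 41.6 summits per Mb inside genes and 53.9 within 10 kb of them, 24.8 at 10 to 50 kb, 11.6 at 50 to 100 kb, 7.20 at 100 to 200 kb and 5.87 over 200 kb away. The other 3 libraries had the same order of classes, and the plot of density by distance shows all 4. From the 50 to 100 kb class outward the density fell more slowly than before it, so the 100 kb limit does not mark a step. The Ins summits just inside it were at 126289446 on chromosome 5, 100.1 kb from Gm23151, with a −log10 q of 27.0, and at 82659961 on chromosome 9, 100.2 kb from Gm35690, with 12.4. Those just outside it were at 104765220 on chromosome 10, 99.98 kb from Gm25522, with 9.92, and at 126143927 on chromosome 5, 99.92 kb from Gm40329, with 12.4.

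**Figure D1:**
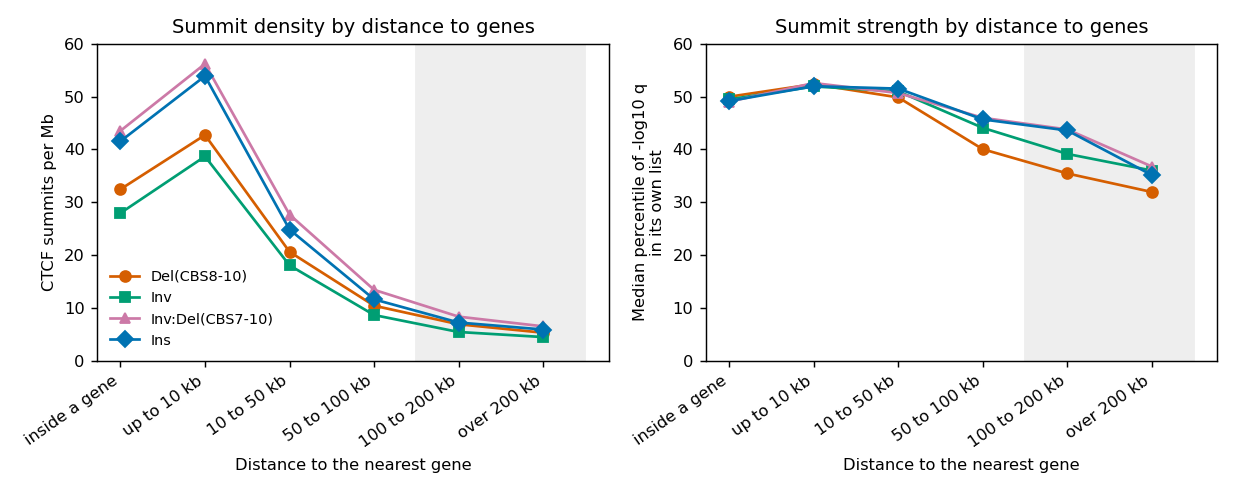
CTCF summits per Mb (left) and their median percentile of −log10 q within the own list (right) by distance to the nearest gene, one line per library, with the classes over 100 kb shaded. Density was highest within 10 kb of genes, at 38.7 to 56.2 per Mb, and lowest over 200 kb away, at 4.45 to 6.48 per Mb; the median percentile fell from the 10 to 50 kb class outward.

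The far summits were weaker than the others. Strength was read as the percentile of a summit's −log10 q among all summits of its own list on these autosomes. It sets far beside other summits of the same list, but still depends on the length of that list. The median percentile of far summits was 32.9 in the Del(CBS8-10) library against 50.3 for the others, 39.2 against 50.2 in the Inv library, 42.2 against 50.2 in the Inv:Del(CBS7-10) library and 41.0 against 50.1 in the Ins library. It was lower in 4 of 4 libraries (exact paired permutation test, p = 0.125, the smallest possible). With distance to protein-coding genes only, the mean difference was -5.91 percentile points in place of -11.4. In units of −log10 q the far medians were 6.92, 9.37, 16.6 and 12.4, against 12.6, 12.7, 24.2 and 18.2 for the others.

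Strong far summits were few. Above percentile 90 stood 21 (1.90%), 23 (2.60%), 44 (3.28%) and 27 (2.298%) of the far summits in the Del(CBS8-10), Inv, Inv:Del(CBS7-10) and Ins libraries, against 10.1% of the other summits in each library. At or below percentile 25 the far shares were 38.4%, 28.6%, 30.4% and 31.7%, against 24.8%, 23.8%, 24.9% and 24.9%. The middle of the far distribution in the Ins library, from the lower to the upper quartile, ran from percentile 22.7 to 62.7, so the far and other distributions overlapped widely.

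**Figure D2:**
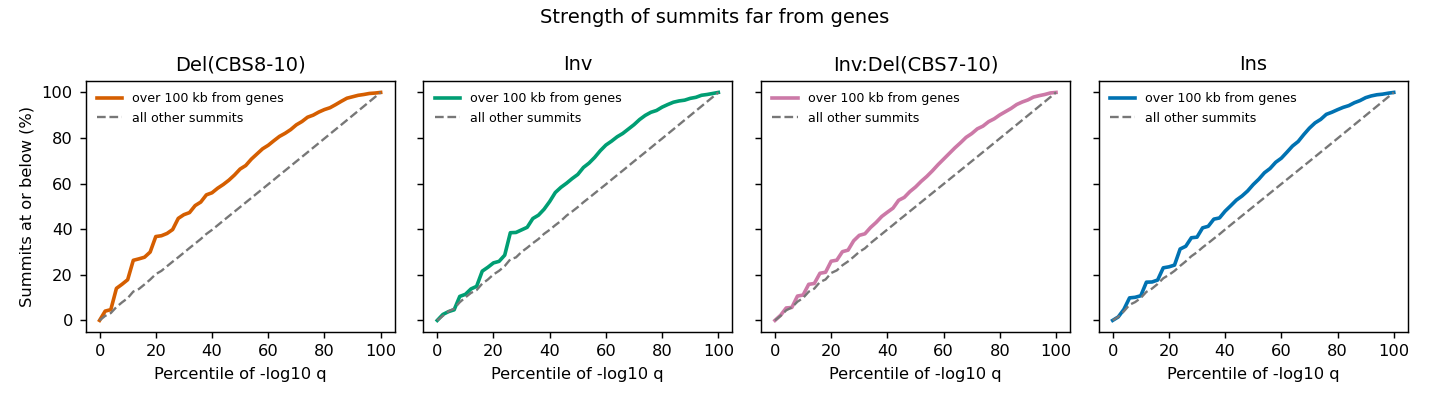
Cumulative share of summits (%) at or below each percentile of −log10 q, one panel per library, for summits over 100 kb from genes (solid) and all others (dashed). Above the lowest percentiles the solid curve lies above the dashed one in each panel, with far medians of 32.9, 39.2, 42.2 and 41.0.

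Both the pileup and the background were low at far summits. The pileup, the number of fragments over the summit, had a far median of 10 in the Del(CBS8-10) library against 18 elsewhere, 8 against 15 in the Inv library, 22 against 36 in the Inv:Del(CBS7-10) library and 16 against 27 in the Ins library. The local background had far medians of 0.600, 0.280, 1.33 and 0.880 fragments, against 1.26, 0.640, 2.66 and 2.06. In the Ins library 47.6% of far summits had a local background equal to that of the whole genome, against 16.3% of the others. The fold over background differed less than the pileup, with far medians of 6.44, 7.50, 9.32 and 8.57 against 7.89, 8.64, 9.24 and 8.61. The recovery assumed a constant added to pileup and background before the fold was taken. At a background this low the fold is therefore not their plain ratio. The far median fold of the Inv:Del(CBS7-10) library was the higher of its pair. The fold is the authors' value per peak, whereas pileup and background were recovered from the deposited fold and −log10 p, and the part of the background in the strength difference was not tested.

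Far peaks were also narrower. Their median width was 263 bp against 295 bp in the Del(CBS8-10) library, 262 against 286 bp in the Inv library, 356 against 409 bp in the Inv:Del(CBS7-10) library and 297 against 343 bp in the Ins library. It was lower in 4 of 4 libraries (exact paired permutation test, p = 0.125, the smallest possible). Peak intervals that held several summits were less frequent, at 2.72%, 1.58%, 5.15% and 5.45% of far summits against 8.33%, 6.38%, 13.2% and 12.7% of the others. Among the 20000 strongest peaks of each list the mean difference over libraries was -11.5 bp, in place of -38.8 bp, and it was -0.50 bp in the Inv:Del(CBS7-10) library. Width and strength were both lower at far peaks, and their shares in this difference were not tested.

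Neighbouring far summits within a desert were 28.7 to 40.5 kb apart at the median. It was 40.5 kb in the Del(CBS8-10) library, 40.5 kb in the Inv library, 28.7 kb in the Inv:Del(CBS7-10) library and 32.9 kb in the Ins library, against 14.5, 15.6, 10.5 and 10.9 kb for neighbours among the other summits. The far spacing was larger in 4 of 4 libraries (exact paired permutation test, p = 0.125, the smallest possible). This ratio of 2.59 to 3.03 was smaller than that of the densities. A far distance was taken within 1 desert only, so it cannot exceed the length of the desert and deserts with 1 summit gave none. Distances between the other summits were taken along the whole chromosome, across any desert between them. The ratio and the test thus set unlike distances side by side. Among the 20000 strongest peaks of each list the order turned in 3 of 4 libraries, with a mean over the 4 of the far minus other medians of -4118 bp. A distance under 1 kb was found in 5.81%, 6.89%, 7.61% and 8.80% of neighbouring far pairs, against 8.83%, 7.66%, 11.4% and 12.02% of the others, and the upper quartile was 91.7, 98.0, 73.6 and 77.1 kb for the far pairs.

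Far summits were shared less often between libraries. A summit counted as shared when every other list had a summit within 100 bp. Of the far summits, 463 of 1104 in the Del(CBS8-10) list (41.9%), 462 of 884 in the Inv list (52.3%), 464 of 1340 in the Inv:Del(CBS7-10) list (34.6%) and 466 of 1175 in the Ins list (39.7%) were shared. Among all summits of these autosomes the shares were 59.8%, 68.6%, 45.2% and 47.8%, and among the summits that were not far 60.1%, 68.8%, 45.4% and 47.9%. The far share was the lower one in each list. No test is given, because a shared summit is by definition in every list, so the 4 counts are nearly the same positions and the libraries are not separate observations. Without the Inv library the far share was lower in each of the other 3, with a mean difference of -8.41 percentage points in place of -13.4, and with protein-coding genes only the mean over the 4 libraries was -6.49.

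At like strength, in the bins of −log10 q under 100, the far and other summits were shared to a more similar degree. Among Ins summits with a −log10 q of 20 to 50, 68.5% (200 of 292, interval 63.0 to 73.6) of the far ones and 69.5% of the others were shared, and between 50 and 100 it was 99.2% (130 of 131) against 96.4%. Below 5 the Ins shares were 2.50% and 3.11%, and between 5 and 20 they were 21.2% (112 of 529, interval 17.9 to 24.9) for the far and 17.1% for the other summits, so there the far share was the higher. Between 20 and 50 the Inv:Del(CBS7-10) shares were 42.2% (interval 36.7 to 47.9) and 45.3%. A difference remained in the Inv list, with 52.9% (278 of 526, interval 48.6 to 57.1) against 62.8% between 5 and 20 and 88.1% (126 of 143, interval 81.8 to 92.4) against 97.2% between 20 and 50. The Del(CBS8-10) list had 46.2% (218 of 472, interval 41.7 to 50.7) against 52.8% between 5 and 20. The bins are of each list's own −log10 q, which depends on depth, and far summits may still lie lower within a bin. The far Del(CBS8-10) and Inv summits of at least 100, which were 2 and 1, belonged to a double peak described below whose summits were placed differently. In the Ins list 82.6% (19 of 23) of the far summits of at least 100 were shared, against 98.9% of the others.

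**Figure D3:**
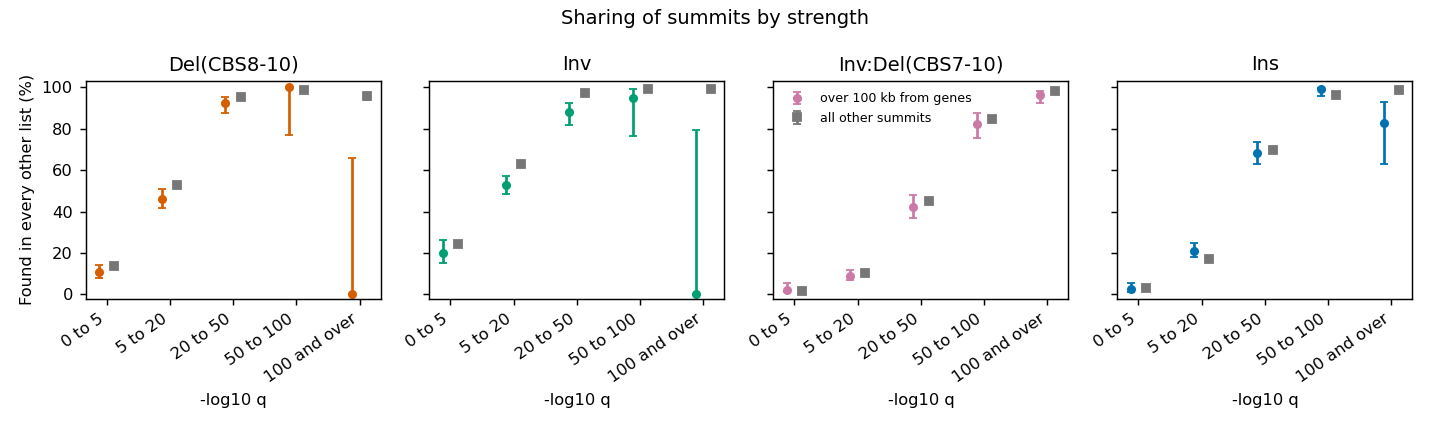
Share of summits (%) found within 100 bp in every other list, by −log10 q of the summit, one panel per library, for summits over 100 kb from genes (circles) and all others (squares), with 95% Wilson intervals (counting error only). Both sets climb with strength up to the 50 to 100 bin, and of the few far summits of at least 100 0 of 2 in Del(CBS8-10), 0 of 1 in Inv and 19 of 23 in Ins were shared; in the Inv panel the far share between 5 and 20 was 52.9% against 62.8%, and in the Ins panel between 20 and 50 it was 68.5% against 69.5%.

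Merged over the libraries within 100 bp, the far summits made 2146 positions. Of these, 474 (22.1%) were found in all 4 libraries, against 33.0% of all merged positions on these autosomes. A further 322 were in 3 libraries, 290 in 2 and 1060 (49.4%) in 1, where 38.4% of the 117213 other positions were in 1. Positions seen in a lone library came from all of them, 300 from Del(CBS8-10), 197 from Inv, 340 from Inv:Del(CBS7-10) and 223 from Ins, and had median percentiles of 11.4, 19.7, 15.6 and 17.3 in their lists. In the same order, 27.2%, 22.3%, 25.4% and 19.0% of far summits had no partner in any other list. Among the other summits it was 13.2%, 9.78%, 20.6% and 17.4%, so the Ins shares were close. The commonest pattern of 3 libraries was presence everywhere but in the Inv list, at 201 positions. The Inv list was also the shortest, and this pattern was not counted among the other positions, so it is not shown to be particular to far ones. The 474 positions in all libraries had median percentiles of 59.3, 53.1, 68.6 and 65.5, against 68.8, 64.3, 76.8 and 75.4 at the 38882 other positions found in all libraries. Across the 474 positions, Spearman's rho of the percentile between 2 libraries was 0.57 to 0.81 over the 6 pairs, and across the other positions 0.71 to 0.88, given as a description since the positions share libraries. At 5 of the 474 the percentile was above 90 in every library, or 1.05%, against 7.79% of the other positions.

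The strongest far signal lay past Fgf14, a fibroblast growth factor homologous factor gene and the last gene on chromosome 14, and was a double peak. Summits stood at 124801667 and 124802073 in the Del(CBS8-10) library, with −log10 q of 378 and 242, and at 124801720 and 124802096 in the Inv:Del(CBS7-10) library, with 630 and 647. The Ins library had them at 124801675 and 124802054, with 659 and 482, whereas the Inv library had 1 summit between them at 124801888, with 196. The intervals were 834 to 877 bp wide and the local background was 29.0, 16.6, 52.7 and 49.1 fragments in the Del(CBS8-10), Inv, Inv:Del(CBS7-10) and Ins libraries, where far summits had medians of 0.600 to 1.33 in the Del(CBS8-10), Ins and Inv:Del(CBS7-10) libraries and 0.280 in the Inv library. The fold was 15.8, 14.6, 15.1 and 16.3 at the first or lone summit. Regions of unspecific high signal were not removed, and a high −log10 q here is not by itself evidence of CTCF.

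The other strongest far positions were single summits present in all 4 libraries, in peaks of 247 to 729 bp. On chromosome 12 at 93577110, 132.3 kb from 4930559C10Rik and 139.3 kb from Gm21007, the −log10 q was 91.4, 75.7, 252 and 194 in the Del(CBS8-10), Inv, Inv:Del(CBS7-10) and Ins libraries, with folds of 27.9, 25.4, 31.3 and 33.6. It stood above percentile 95 in every list. On chromosome 14 at 90911235, 190.9 kb from Gm18082, the values were 64.5, 80.2, 195 and 132, and on chromosome 10 at 37820498, 238.8 kb from Gm46220, they were 68.3, 34.4, 142 and 133. Both were peaks under 300 bp wide.

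Of the other strong positions, 3 had a protein-coding gene as their nearest gene. At 103306904 on chromosome 6, 203.7 kb from Chl1, a neural cell adhesion gene, the −log10 q was 43.6, 54.8, 327 and 162 in the same order of libraries. At 26703848 on chromosome 5, 113.5 kb from Dpp6, which encodes a partner of potassium channels, it was 41.8, 49.6, 299 and 97.5. A position at 142903560 on chromosome 4, 203.8 kb from the zinc-finger gene Prdm2, had 43.9, 56.1, 283 and 151. At 22145155 on chromosome 4, 104.6 kb from Gm42260, it was 37.3, 60.6, 304 and 109.

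At some of these positions the Inv list gave the highest percentile of the 4, and the list that came closest differed. On chromosome 5 at 80500927, 392.7 kb from the nearest gene Gm22974, the percentile was 72.3, 99.2, 91.6 and 67.8 in the Del(CBS8-10), Inv, Inv:Del(CBS7-10) and Ins libraries. On chromosome 18 at 18837993, 329.8 kb from Gm31086, it was 67.8, 99.2, 88.6 and 85.3. All of them were chosen as among the 5 strongest far summits of the Inv list, so a high rank there was fixed by the choice. No replicate bears on it. A percentile also depends on the length of its list, which differs between the libraries.

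A few strong far summits had no partner in some lists. Of the 23 far Ins summits with a −log10 q of at least 100, 2 (8.70%) had no partner in any other list. Among the other Ins summits of that strength it was 17 of 7277 (0.234%). The 2 far ones were singled out after their values were seen. One lay on chromosome 14 at 107075332, between Gm23437 and Gm9334, with a −log10 q of 113, a fold of 31.0, a pileup of 92 fragments and percentile 93.8, and the nearest summits of the Del(CBS8-10), Inv and Inv:Del(CBS7-10) lists were 90190, 90356 and 309243 bp away. The other lay on chromosome 3 at 125228428, 175.6 kb from Ndst4, a heparan sulfate enzyme gene, with a −log10 q of 103.2, a fold of 29.9, a pileup of 84 and percentile 91.7, and nothing nearer than 7174 bp in another list. Both peaks were narrow, at 264 and 251 bp. With 1 Ins library these 2 summits have no replicate check.

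The summits farthest from any gene lay on chromosome 14 between Gm19050 and Gm24774, a desert with Olfm4 and the protocadherin gene Pcdh17 as the nearest protein-coding genes. A position found in all 4 libraries stood there about 631.1 kb from Gm19050, with a −log10 q of 23.3 for the Del(CBS8-10) summit, 53.5 for the Inv summit, where it was at percentile 92.5, and 47.5 at 82753362 in the Ins library. The most distant summit of the Inv:Del(CBS7-10) list was a weak one 635.2 kb away, with a −log10 q of 6.72 and no partner in the other lists. Over 500 kb from a gene lay 12, 9, 19 and 13 summits in the Del(CBS8-10), Inv, Inv:Del(CBS7-10) and Ins libraries.

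Far positions were spread over many deserts. On these autosomes 1105 gaps between neighbouring genes exceeded 200 kb and so had room for a far summit. Of these, 676 held at least 1 far position, 299 held 1 found in all 4 libraries and 429 held none. The occupied gaps had a median of 148.4 kb of far territory, against 38.9 kb in the empty ones. The 140 fullest gaps, 12.7% of all, held at least 50% of the 2141 positions inside gaps, and the other 5 positions lay beyond the first or last gene of a chromosome. The 10 fullest held 175 positions (8.17%) on 3.25% of the territory. Fullest gaps were picked by their number of positions, which favours high shares, so these shares are not evidence of concentration. Spearman's rho of far territory and positions over the 1105 gaps was 0.66, as a description. Each of the 57 gaps with at least 500 kb of far territory had a far position, at 1.59 to 33.2 per Mb with a median of 9.64, and 24 of them had none in all 4 libraries.

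The flanks of these gaps were mostly not protein-coding. Pseudogenes made up 40.4% of the genes at gap edges, lncRNA genes 28.4% and protein-coding genes 17.7%. Counting distance to protein-coding genes alone raised the far summits to 27639, so being far from any gene depended much on the annotation of pseudogenes and noncoding RNAs.

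The gap with the most positions, 23, lay on chromosome 15 from 14466670 to 15778113, between Gm9630 and 4930557F08Rik, with Cdh6 and Cdh9, type II cadherins of cell adhesion, 1290 and 950.4 kb beyond its edges. It held 11, 9, 15 and 12 far summits in the Del(CBS8-10), Inv, Inv:Del(CBS7-10) and Ins libraries, and 3 positions in all of them. Its strongest position common to the lists, taken here and below as the one whose lowest percentile over the 4 libraries was highest, lay near 14628717. It had a −log10 q of 51.6, 37.0, 147 and 94.6, and stood above percentile 83 in each list. The gap from Gm18728 to Gm41924 on chromosome 1, with Cntnap5b 2910 kb before it and Cdh20 463.6 kb after it, held 16 positions, 3 of them in all libraries. The gap from LOC115488950 to Gm31086 on chromosome 18, between Cdh2 (N-cadherin) and Dsc3, a desmosomal cadherin, held 14, of which 2 were in all libraries.

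Among gaps with at least 500 kb of far territory the densest lay on chromosome 17 from 93332953 to 94164556, between Gm6764 and Gm32512, 126.4 kb beyond Adcyap1, the gene of the neuropeptide PACAP. It held 21 positions, or 33.2 per Mb of far territory, and 8 of them were in all 4 libraries, the highest such number among the 10 fullest gaps. The libraries had 15, 13, 15 and 12 far summits there. Its strongest common position, near 93874673, was of middling strength, with a −log10 q of 15.5, 11.7, 71.6 and 31.6. Another, at 93645738 in the Inv:Del(CBS7-10) library with a −log10 q of 101.9 and a fold of 27.3, had a partner 34 bp away in the Del(CBS8-10) list and 1 bp away in the Inv list, while the nearest Ins summit was 98033 bp away.

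A short gap on chromosome 5, from 126044009 to 126389547 between Gm40329 and Gm23151, with Gm4868 and Tmem132c as the nearest protein-coding genes, was packed more tightly. It had 145.5 kb of far territory and 19 positions, which is 131 per Mb, with 6 of them in all 4 libraries. The libraries had 6, 10, 14 and 12 summits. The strongest common position, near 126174612, had a −log10 q of 18.3, 17.7, 72.04 and 46.7. The chromosome 5 summits named above on either side of the 100 kb limit lie in this gap.

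**Figure D4:**
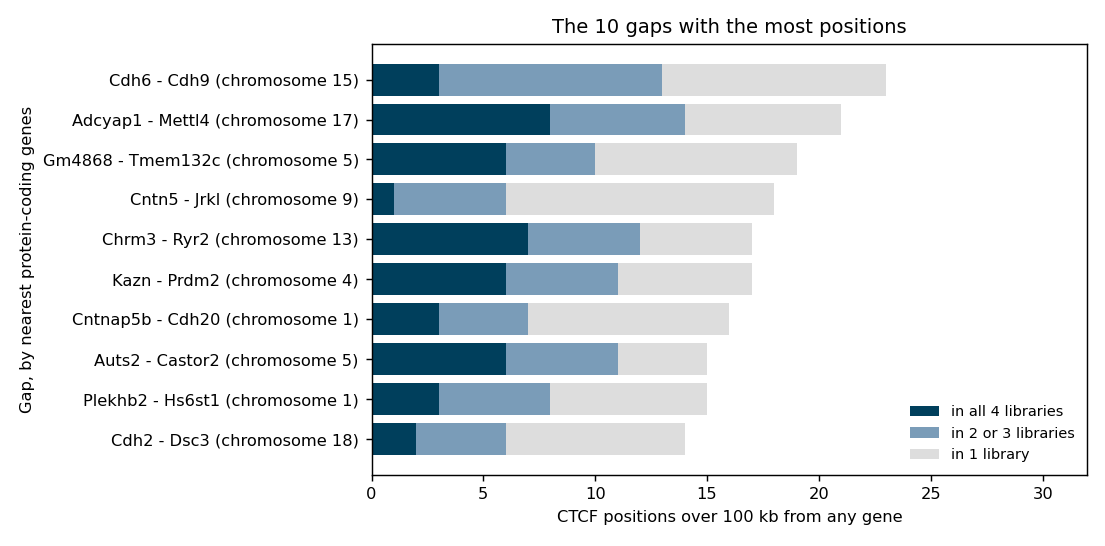
Number of CTCF positions over 100 kb from any gene in the 10 gaps with the most, named by their nearest protein-coding genes, split by the number of libraries in which a position was found. Totals run from 23 (Cdh6 to Cdh9) to 14 (Cdh2 to Dsc3), and positions in all 4 libraries from 8 (Adcyap1 to Mettl4) to 1 (Cntn5 to Jrkl).

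The remaining full gaps flanked genes of several kinds. Between Cntn5, a contactin of neurons, and Jrkl on chromosome 9, 18 positions were found, but 12 of them in 1 library and only 1 in all 4. That position, near 11940360, had a −log10 q of 12.4, 6.39, 31.3 and 24.9. Between Chrm3, a muscarinic acetylcholine receptor gene, and Ryr2, the cardiac ryanodine receptor gene, on chromosome 13, 17 were found and 7 were in all libraries, led by one near 10942248 with 37.7, 36.9, 95.8 and 56.8. The gap up to Prdm2 on chromosome 4 held 17 in 245.5 kb of far territory, with 6 in all libraries, among them the strong position at 142903560. Between Auts2, a gene of neuronal development, and Castor2 on chromosome 5, 6 of 15 were in all libraries, and between Plekhb2 and Hs6st1, a heparan sulfate sulfotransferase gene, on chromosome 1, 3 of 15 were. There the position near 35385545 had 53.0, 47.0, 182 and 67.2.

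**Figure D5:**
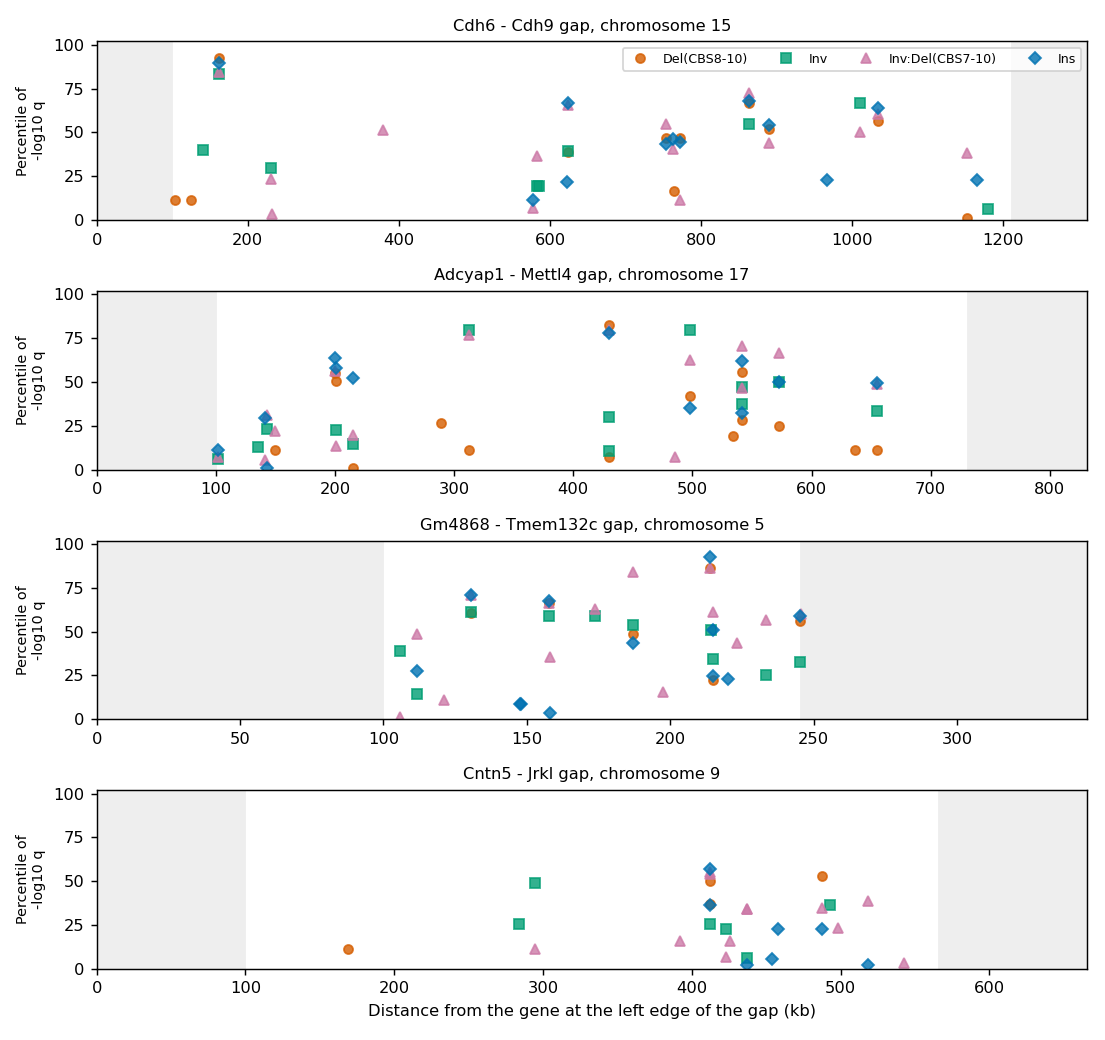
Far summits in the 4 fullest gaps by distance from the gene at the left edge (kb) and percentile of −log10 q in the own list, coloured by library, with the 100 kb next to each flanking gene shaded. Points of all 4 libraries stack at a few places, such as 162 kb into the Cdh6 to Cdh9 gap, while many low points belong to 1 library.

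Long gaps differed widely in how many positions they held. The second longest, of 1311 kb, was the fullest with 23, named above. The longest gap, 1468 kb on chromosome 4 between Gm11919 and 4930556G01Rik, beyond the ephrin receptor gene Epha7, held 6 positions and none in all 4 libraries, with no far summit in the Inv list. The gap of 1272 kb on chromosome 3 towards Pcdh10, a protocadherin gene, also held 6 and none in all 4. The gap of 1219 kb on chromosome 5 towards Slit2, an axon guidance gene, held 10 with 2 in all libraries. Among gaps with at least 500 kb of far territory the sparsest were between Kctd16 and Prelid2 on chromosome 18, with 1 position in 628.0 kb, and between Cadm2 and Speer2 on chromosome 16, with 1 in 596.0 kb. The gap next to Celf2, on the side of Gata3, which lay 1710 kb away, had 2 in 550.9 kb, whereas another gap between the same protein-coding genes had 6 in 152.1 kb, 4 of them in all libraries.

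Gaps next to developmental transcription factor genes held more positions per Mb than other gaps. Of the 1105 gaps, 62 had a gene of this list, matched by symbol, as the nearest protein-coding gene on either side, and they held 144 positions at 21.4 per Mb, against 12.02 per Mb in the other gaps. The gap at Prdm2 gave 17 of the 144. Positions in all 4 libraries numbered 39 of the 144, at 5.79 against 2.61 per Mb. In gaps of 300 to 500 kb the density of all far positions was 25.9 against 12.03 per Mb (24 gaps of the list). It was 19.8 against 15.6 in gaps of 200 to 300 kb (35 gaps), and 10.4 against 11.03 over 500 kb (3 gaps). For positions in all 4 libraries it was 7.41 against 2.93, 3.09 against 3.70 and 4.47 against 2.07 per Mb, in the same order of classes. In gaps of 200 to 300 kb the list was thus the lower one for positions in all 4 libraries. No test was made of these differences. The gaps of the list held a far position no more often, in 37 of 62 (59.7%) against 676 of all 1105 (61.2%). Among them, 11 positions, 6 in all libraries, lay between Sall1 and Tox3, 11 before Zfhx3, a homeobox and zinc-finger gene, and 8 beyond Sall3. The gap beyond Sox2, a factor of the pluripotency network, held 5, of which 1 was in all libraries.

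Gaps next to genes of the nervous system for adhesion, synapses and ion channels were more numerous and not denser. There were 252 of them, with 589 positions at 10.9 per Mb, against 13.0 per Mb in the other gaps. Positions in all 4 libraries numbered 111 of the 589, at 2.06 against 3.04 per Mb. A far position was present in 172 of the 252 gaps (68.3%), against 59.1% of the other gaps. The gaps of the list made up 36.5% of those over 500 kb and 18.8% of those of 200 to 300 kb. Within the size classes the density was 15.1 against 16.1, 11.3 against 13.3 and 10.2 against 11.6 positions per Mb, from the shortest to the longest. Both lists include namesakes of the gene families, several gaps can share a nearest gene, and that gene can lie over 1 Mb from the gap.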

How the data were processed

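Each of the 4 deposited lists holds the peaks of 1 CTCF CUT&RUN library. Per the submitters' processing notes, the tools were MACS2 2.2.7.1, bedtools 2.30.0, Picard, cutadapt 4.1 and Bowtie2 2.4.5, with build mm10; their settings, read filters and any control are not given in the sources used. The deposited fold over local background, −log10 p and −log10 q are the authors' values, and the deposited score is 10 times the −log10 q without decimals. The lowest −log10 q was 1.30 to 1.31.

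Positions are counted from 1. Distances were taken to 43670 genes of the GRCm38.p6 RefSeq table, the assembly behind mm10. Its 285 entries placed before 3 Mb, where no list has a summit (lowest 3000522), were left out, which was decided after the files were seen. Pileup and background were recovered from fold and −log10 p (tolerance 0.001), which solved 100% of summits; this assumes that the same constant was added to pileup and background before the fold was taken. The recovery, the distances and the matching were tested on simulated data. Python 3.11.15, NumPy 2.4.6, pandas 2.3.3, SciPy 1.17.1 and Matplotlib 3.10.9 were used.

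Named were the 5 strongest far summits of each library, the 10 fullest gaps with the common position of the highest lowest percentile, and the longest, densest and sparsest gaps; the gaps of the gene lists and the strong summits without partners were named after their values were seen. Members and lists were chosen with earlier results of these data known. No genome sequence was used, so the planned motif search was not run.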

Additional observations from a re-analysis of the deposited data

How the results depend on the processing

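The far summits numbered 4503 in all. They were 12098 at a distance of more than 50 kb, 1206 at more than 200 kb, 27639 with protein-coding genes only, 36603 with distance to gene starts only (chromosome 18 left out), 2325 with a minimum −log10 q of 10, and 630 among the 20000 strongest peaks of each list. The fullest gaps that together hold 50% of the positions numbered 140, and 369, 39 and 63 at more than 50 kb, at more than 200 kb and among the 20000 strongest, and 86 for positions found in all 4 libraries. With protein-coding genes only the number was 204, for 12343 positions, where more than 50 kb had 369 for 5586. At a minimum −log10 q of 10 it was 114. The settings change the number of summits admitted, and those of distance or genes also change which gaps have room for one. Their shares in these changes were not tested. The lower density, strength, width and sharing of far summits kept their direction in every setting run for them, but not their size. Among the 20000 strongest peaks the mean difference in width was -11.5 bp in place of -38.8 bp, and -0.50 bp in the Inv:Del(CBS7-10) library, and that in sharing was -20.9 percentage points in place of -13.4. With protein-coding genes only, width differed by -21.3 bp, strength by -5.91 percentile points in place of -11.4 and sharing by -6.49 points. At a minimum −log10 q of 10 width differed by -23.1 bp and sharing by -14.0 points. Without the Inv library sharing differed by -8.41 points. The spacing difference at more than 50 kb was 12279 bp in place of 22757 bp. The larger spacing did so except among the 20000 strongest peaks, where the mean difference was -4118 bp, with -3073 bp in the Del(CBS8-10), -10281 bp in the Inv and -5401 bp in the Inv:Del(CBS7-10) library; the cause was not tested. Keeping gene entries placed before 3 Mb, a setting chosen after seeing the data, left the number of far summits at 4503 and put the territory at 197 Mb. No paired analysis was possible because each genotype has 1 library, so no replicate number pairs genotypes; the paired tests set far against other summits within a library. A summit absent from a list may be below detection in that library, and read depth is not known here.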

Other observations

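Chromosome X, which the rule leaves out, held 59, 76, 81 and 69 summits over 100 kb from any gene in the Del(CBS8-10), Inv, Inv:Del(CBS7-10) and Ins libraries, or 2.92%, 4.04%, 2.91% and 2.66% of its summits. Its far territory of 14.7 Mb carried 3.94, 5.09, 5.43 and 4.62 summits per Mb, against 12.8, 11.8, 17.7 and 16.5 per Mb elsewhere on the chromosome. Of the far summits of chromosome X, 24 (40.7%), 25 (32.9%), 26 (32.1%) and 24 (34.8%) were matched within 100 bp by each of the other lists, against 57.6%, 62.7%, 41.8% and 45.0% of the other summits of the chromosome.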
